A study of Homo sapiens with 16 samples.

Results

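The genes described here are 8 regulators of alternative splicing that are known for the isoform switch between epithelial and mesenchymal cells: ESRP1, ESRP2, RBFOX2, QKI, MBNL1, MBNL2, PTBP1 and SRSF1. They were chosen by name from what is known of this switch, with earlier results of these data known. Each matched 1 row of the deposited tables, 8 of 57773 genes in all. The cells were A549, an established human line from a lung adenocarcinoma of the alveolar epithelium, taken through an epithelial to mesenchymal transition, in which cells lose epithelial and gain mesenchymal features. The labels name TGF-beta, a secreted growth factor, as the inducer of the transition in all 16 libraries, and sort them by time alone: 0, 6, 12, 24, 36, 48, 72 and 96 h, with 2 replicates each. No dose or genotype is labelled, and no untreated cultures of the later times were analysed here, so TGF-beta and time in culture cannot be told apart. RNA was measured by sequencing, and values are TPM, shares of all transcripts that are corrected for transcript length and can be compared between genes.

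Most human genes with several exons can be spliced into more than one isoform, and RNA-binding proteins that sit on or beside an exon set whether it is kept or skipped. ESRP1 and ESRP2 are the regulators that define the epithelial pattern, and many of their target exons switch when they are lost. RBFOX2 and QKI act on many of the same exons in mesenchymal cells, the muscleblind proteins MBNL1 and MBNL2 drive patterns of differentiated cells, PTBP1 is a widespread repressor of exons, and SRSF1 is an SR protein that promotes exon inclusion. Their own RNA levels are measured here, not the isoforms of their targets.

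Across the course the regulators with known epithelial function were close to 0 from the start, while the other 6 were expressed throughout. Libraries were split into early (0 to 12 h, 6 libraries) and late ones (24 to 96 h, 10 libraries) with earlier results of these data known. P-values between late and early libraries are therefore not those of a split fixed beforehand. SRSF1 fell between the early and the late libraries. PTBP1 had a larger estimate in the same direction that passed the threshold in the fit with replicate number as a block and missed it narrowly without. RBFOX2, MBNL1 and MBNL2 had small positive estimates and QKI a negative one, none of them called on the TPM as deposited. In every library the level of MBNL1 relative to PTBP1 was below 1 up to 12 h and above 1 from 48 h on.

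The promoters of PTBP1 and SRSF1 are shown because these are the members whose estimates lie lowest. The windows searched came from RefSeq's promoter table (GRCh38.p14) and also matched MBNL1 and MBNL2. Thus 4 of the 8 members had at least 1 window among those searched. Each window printed is the 250 bases before the annotated start, 5′ to 3′ on the gene's strand, with motif matches in capitals. The motifs searched on both strands were the E-box CACGTG, the E-box CACCTG bound by ZEB and SNAI repressors, the SMAD palindrome GTCTAGAC, the CCAAT box, TGACGT of CREB and ATF sites, CGGAAG of ETS sites and the GC box GGGCGG.
PTBP1, chr19:797202-797451, + strand: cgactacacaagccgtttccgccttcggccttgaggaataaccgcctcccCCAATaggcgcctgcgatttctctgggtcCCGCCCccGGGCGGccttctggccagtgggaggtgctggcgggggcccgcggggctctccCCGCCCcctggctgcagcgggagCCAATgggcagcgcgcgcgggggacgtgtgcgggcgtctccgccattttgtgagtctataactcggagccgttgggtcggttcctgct
SRSF1, chr17:58007247-58007496, - strand: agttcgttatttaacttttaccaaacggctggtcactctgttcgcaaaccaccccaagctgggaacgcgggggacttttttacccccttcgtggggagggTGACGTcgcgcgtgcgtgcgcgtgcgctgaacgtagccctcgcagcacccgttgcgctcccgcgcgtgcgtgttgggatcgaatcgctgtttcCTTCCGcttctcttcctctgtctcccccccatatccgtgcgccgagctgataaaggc
The PTBP1 window printed held 2 CCAAT boxes and 3 GC boxes, with a GC content of 69.2%. Another annotated start of PTBP1 has its own window (chr19:797734-797983), not printed. That window held 0 CCAAT boxes and 1 GC box, with a GC content of 82.4%. The SRSF1 window held 1 TGACGT and 1 CGGAAG match, the latter read as its reverse complement, with a GC content of 60%. Over the 35116 RefSeq windows of the same length that were searched, 32% held a CCAAT box, 42.6% a GC box, 7.1% TGACGT and 16.5% CGGAAG. Neither printed window held the other motifs, which were in 6.34% (CACGTG), 17.5% (CACCTG) and 0.182% (GTCTAGAC) of the windows searched. The matches do not overlap, and no motif searched was shared by the windows shown.

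**Figure D1:**
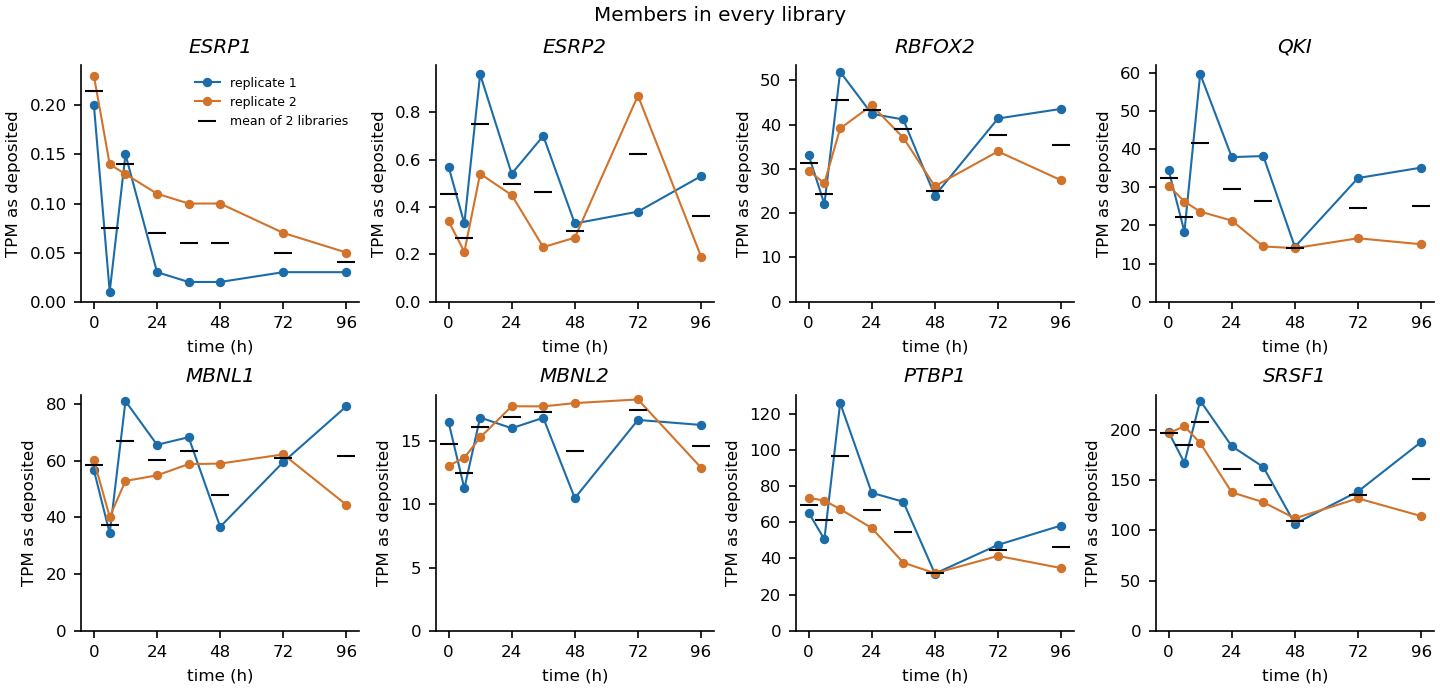
TPM as deposited (y axis, linear from 0) against time in hours (x axis) for the 8 members; points joined by lines are the libraries of replicate 1 and replicate 2, and dashes are the mean of the 2 libraries at a time. ESRP1 and ESRP2 stay below 1 TPM in every library, and PTBP1 and SRSF1 have their lowest replicate 1 values at 48 h.

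The epithelial regulators came first in the comparison because the transition is defined by loss of the epithelial state. ESRP1 (ENSG00000104413) had 0.20, 0.01, 0.15, 0.03, 0.02, 0.02, 0.03 and 0.03 TPM over the 8 times in replicate 1. In replicate 2 it had 0.23, 0.14, 0.13, 0.11, 0.10, 0.10, 0.07 and 0.05 TPM. The 0 h value was the highest of each series, and the early libraries (0.01 to 0.23 TPM, median 0.145) overlapped the late ones (0.02 to 0.11 TPM, median 0.04). ESRP2 (ENSG00000103067) ranged from 0.21 to 0.96 TPM in the early libraries (median 0.44) and from 0.19 to 0.87 TPM in the late ones (median 0.415), with its 2 highest values in 12 h replicate 1 and 72 h replicate 2. ESRP2 was above ESRP1 in all 16 libraries.

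Neither ESRP gene reached 1 TPM in at least 2 libraries, the filter for the tests, so 6 of the 8 members were tested among 16967 genes. Without the filter, ESRP1 changed by -0.11 on the log2(TPM + 1) scale between early and late libraries (adjusted p = 0.115 by limma), a scale that compresses such low values. With a pseudocount of 0.1 and no filter, an alternative chosen after seeing the data, the estimate was -0.60 (SE 0.24, adjusted p = 0.243 by limma). The corresponding ESRP2 values were -0.04 (adjusted p = 0.910) and -0.09 (adjusted p = 0.929). TPM keep no read totals, so the sequencing depth and the counting error behind these low values are unknown.

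The label of the cells as epithelial was checked on 5 epithelial markers. The keratins KRT8 and KRT18, filament proteins of simple epithelium, had early medians of 1789 and 2213 TPM and late medians of 808.8 and 1010 TPM. CDH1, the adhesion protein E-cadherin, went from 4.28 to 27.56 TPM (median 8.96) in the early libraries to 0.44 to 3.38 TPM (median 1.67) in the late ones, without overlap, and fell by 1.99 on the log2 scale (adjusted p = 0.00248 by limma). KRT19 fell by 2.17 (adjusted p = 0.000525 by limma), and 4 of the 5 markers were called lower, against 7.86% of all genes. EPCAM, an adhesion protein of many epithelia, was at 2.57 to 4.52 TPM early and 0.74 to 3.83 TPM late (-0.63, adjusted p = 0.114 by limma, or 0.0189 with the replicate block). With the block 5 of 5 markers were called lower, against 11.2% of all genes. So the cells carried strong keratin RNA at 0 h beside ESRP levels near 0.

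Markers of other cell types had summed levels in the early and late libraries of 0.79 to 4.93 and 1.54 to 5.47 TPM for fibroblasts (1 of 7 genes past the filter, LUM), 5 to 13.6 and 5.76 to 11.59 TPM for leukocytes (3 of 6), and 0.01 to 0.2 and 0 to 0.1 TPM for endothelium (0 of 3 matched). LUM was called higher in the late libraries, from a median of 0.16 to 0.965 TPM (adjusted p = 0.0339 by limma). The leukocyte marker CD14 was called lower, from 0.825 to 0.075 TPM (adjusted p = 0.00489 by limma). LUM reached at most 0.8 TPM early and CD14 at most 0.39 TPM late. Each thus passed the filter only through the group where it was higher, which favours the direction called. The part of these cell types in the results was not tested. Neuron and muscle markers, which belong to cells that also use RBFOX, MBNL and QKI proteins, summed to 7.22 to 19.76 and 5.45 to 27.36 TPM with 2 of 7 past the filter. SNAP25, a synaptic protein, made up most of that sum, at 6.41 to 18.03 TPM early and 5.21 to 27.13 TPM late, and MYOG was listed at 0 in every library. A set of 6 abundant small RNAs took 42.5% to 64.1% of the TPM, which moves the scale of all other genes from library to library; 0 of them were called between late and early libraries, and 1, RN7SL3, was lower in the blocked fit (-0.58, adjusted p = 0.000184 by limma). Genes listed at 0 numbered 29278 to 31187 per library, apart from 36116 in 36 h replicate 2 and 36294 in 48 h replicate 2. Over all genes tested, the median change from 0 h on the log2 scale was -0.37 (6 h) and -0.46 (48 h), lay between -0.20 and 0.03 at the other times, and was -0.11 between late and early. TMM scaling, which sets a library's scale from the bulk of its genes, brought the last to -0.02, so values after TMM scaling stand beside the deposited ones below.

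SRSF1 (ENSG00000136450), an SR protein that binds exonic enhancers, was the most abundant member in all 16 libraries. Its replicate 1 values were 197.96, 167.52 and 229.40 TPM at 0, 6 and 12 h, then 184.05, 163.26, 106.67, 138.91 and 188.18 TPM at 24, 36, 48, 72 and 96 h. In replicate 2 they were 197.00, 203.82 and 187.23 TPM, then 138.05, 128.19, 112.11, 131.99 and 114.37 TPM. Both series had their lowest value at 48 h, and in replicate 1 the 24 h and 96 h values were above that of 6 h. The early range (167.52 to 229.40 TPM, median 197.5) and the late range (106.67 to 188.18 TPM, median 135.02) thus overlapped. SRSF1 fell by 0.50 on the log2 scale between early and late libraries (SE 0.13, 95% interval -0.79 to -0.22, adjusted p = 0.0295 by limma). Within replicate 1 the difference was -0.36 and within replicate 2 -0.65.

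That call of SRSF1 depended on single libraries and on the filter. Its adjusted p by limma was 0.0790, 0.0829, 0.0545 and 0.0522 when replicate 1 of 0, 12, 48 or 72 h was left out. It was 0.0939, 0.124, 0.0689 and 0.0616 when replicate 2 of 0, 6, 24 or 36 h was left out. It was 0.0799 without both libraries that list the most genes at 0, and 0.0581 with no filter. The estimate lay between -0.58 and -0.38 in all settings run. Calls over all genes were also fewer in each setting where SRSF1 was not called than the 1731 of the main fit. In GENCODE v29 transcripts, 50.8% of the 50-base runs of SRSF1 also occur in a readthrough gene (RP11-159D12.5 in the tables, 0.49 to 6.38 TPM), so some reads could have been assigned to either; the other members share at most 0.425% of their runs with any gene.

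PTBP1 (ENSG00000011304), the polypyrimidine tract-binding repressor of exons, had replicate 1 values of 65.28, 50.60 and 125.86 TPM at 0, 6 and 12 h and 76.27, 71.31, 31.61, 47.48 and 58.19 TPM from 24 to 96 h. Replicate 2 had 73.46, 71.96 and 67.25 TPM, then 56.79, 37.65, 31.82, 41.39 and 34.68 TPM. Both series were at their lowest at 48 h and the 12 h value of replicate 1 stood far above all others, with the early libraries (median 69.6 TPM) overlapping the late ones (median 44.4 TPM). The estimate was -0.64 (SE 0.19, 95% interval -1.05 to -0.23), with an adjusted p of 0.0510 by limma, just above the threshold. With replicate number as a block the adjusted p was 0.0186, and PTBP1 was then called lower. PTBP1 was also called with TMM scaling (-0.53, adjusted p = 0.00775 by limma), a 5 TPM filter (0.0434) or the 6 small RNAs left out (0.0254). It was not called with no filter (0.117), no mean trend (0.0608) or a pseudocount of 0.1 (0.0520). With single libraries left out the estimate ran from -0.78 (without 12 h replicate 2) to -0.49 (without 12 h replicate 1). PTBP1 was called in some of those runs and not in others. The difference was -0.45 within replicate 1 and -0.82 within replicate 2.

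Of the 6 members tested, 1 was called between late and early libraries on the TPM as deposited, SRSF1, against 10.2% of all genes tested (2.34% higher and 7.86% lower). With the replicate block 2 were called, SRSF1 and PTBP1, against a background of 15% (3.76% higher, 11.2% lower), and with TMM scaling the same 2 against 13.3%. With block and TMM scaling together 3 were called, SRSF1 and PTBP1 lower and MBNL1 higher, against 21.5% (9.14% higher, 12.4% lower). The split of calls over all genes depended on the scaling: 22.9% of called genes were higher on the TPM as deposited and 42.9% with TMM scaling. The median estimate of the 6 members was -0.16, or -0.05 with TMM scaling, next to -0.11 and -0.02 over all genes.

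**Figure D2:**
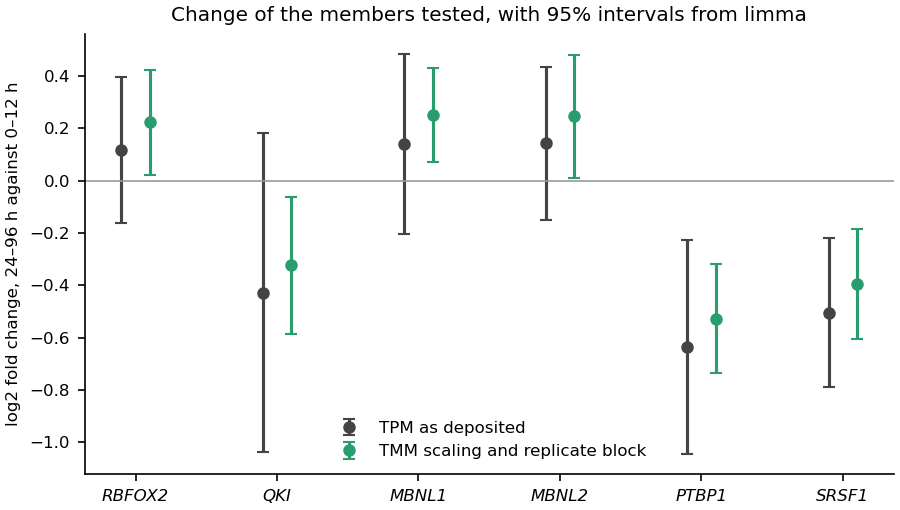
Log2 fold change of the 24 to 96 h libraries against the 0 to 12 h libraries (y axis) for the 6 members tested (x axis); points are limma estimates and bars are 95% intervals, on TPM as deposited (dark) and after TMM scaling with a replicate block (green). The intervals of PTBP1 and SRSF1 lie below 0 on both scales.

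RBFOX2 (ENSG00000100320), which binds UGCAUG elements beside exons, was at 33.11, 22.02, 51.89, 42.41, 41.13, 23.93, 41.36 and 43.53 TPM over the 8 times in replicate 1. In replicate 2 it was at 29.54, 26.75, 39.10, 44.35, 37.01, 26.05, 33.92 and 27.41 TPM. Both series dipped at 6 and at 48 h and were higher at 12 and 24 h than at 0 h. After TMM scaling the 6 h dip was gone, with 29.1 and 24.4 TPM at 0 h against 30.2 and 29.8 TPM at 6 h, and 24 h held 37.1 and 46.4 TPM. The estimate between early and late libraries was 0.12 (95% interval -0.16 to 0.40, adjusted p = 0.665 by limma), or 0.22 with TMM scaling (adjusted p = 0.150), not called in either.

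QKI (ENSG00000112531), a KH-domain protein that binds ACUAAY-like elements, had replicate series that parted at 12 h. Replicate 1 had 34.53, 18.35, 59.79, 37.95, 38.22, 14.36, 32.45 and 35.19 TPM and ended near its 0 h level. Replicate 2 had 30.46, 26.27, 23.64, 21.27, 14.48, 14.04, 16.63 and 15.06 TPM and stayed low from 36 h on. At 96 h the change from 0 h was 0.03 in replicate 1 and -0.97 in replicate 2, and between early and late libraries it was -0.17 and -0.69. After TMM scaling the 96 h changes were smaller in replicate 2, at -0.088 in replicate 1 and -0.34 in replicate 2. Between early and late libraries they were then -0.12 and -0.53. The estimate over both replicates on the TPM as deposited was -0.43 (95% interval -1.04 to 0.18, adjusted p = 0.405 by limma, or 0.183 with the replicate block). With TMM scaling it was -0.32 (adjusted p = 0.308 by limma, or 0.0770 with the block), so no change of QKI was called.

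The muscleblind genes, whose proteins bind YGCY elements, were not called on the TPM as deposited. MBNL1 (ENSG00000152601) had an early range of 34.39 to 80.93 TPM (median 54.7) and a late range of 36.65 to 79.10 TPM (median 59.19), with 0 h values of 56.59 and 60.06 TPM and 96 h values of 79.10 and 44.37 TPM. MBNL2 (ENSG00000139793) had an early range of 11.27 to 16.88 TPM (median 14.5) and a late range of 10.50 to 18.31 TPM (median 16.8). The estimates between early and late libraries were 0.14 for MBNL1 (95% interval -0.20 to 0.49, adjusted p = 0.672 by limma) and 0.14 for MBNL2 (-0.15 to 0.44, adjusted p = 0.601). After TMM scaling MBNL1 ran from 44.7 to 55.3 TPM early and from 52.0 to 65.3 TPM late, with an estimate of 0.25 that missed the threshold without the block (adjusted p = 0.0824) and passed it with the block (0.0488). MBNL2 was at 0.25 with TMM scaling and the block (adjusted p = 0.128). An interval that spans 0 does not show that the level stayed the same.

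Against 0 h, which rests on 2 libraries at each time, none of the 6 members was called at any time on the TPM as deposited. The share of all genes called was 0.0177%, 0.383%, 1.21%, 2.3%, 7.6%, 2.58% and 1.79% at 6, 12, 24, 36, 48, 72 and 96 h. At an unadjusted p below 0.05 the count of members was 2 at 48 h, PTBP1 and SRSF1, and 0 at the other times. Over all genes the share below that level was 28.9% at 48 h and 8.29% to 15.9% at the other times. At 48 h the estimates were -1.10 for PTBP1 (SE 0.37, adjusted p = 0.0778 by limma) and -0.85 for SRSF1 (SE 0.25, adjusted p = 0.0593). With the replicate block both were called at 48 h (adjusted p = 0.0341 and 0.0255), against 16.6% of all genes, and QKI was at -1.14 (adjusted p = 0.0623). With TMM scaling neither was called at 48 h, at -0.56 (adjusted p = 0.150) and -0.29 (adjusted p = 0.425). The test over the whole course called 0 of the 6 members and 1.72% of all genes. RBFOX2, PTBP1 and SRSF1 had an unadjusted p below 0.05 in it, as did 14% of all genes. With block and TMM scaling the same test called 1, PTBP1 (adjusted p = 0.0242 by limma), and 11.5% of all genes.

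**Figure D3:**
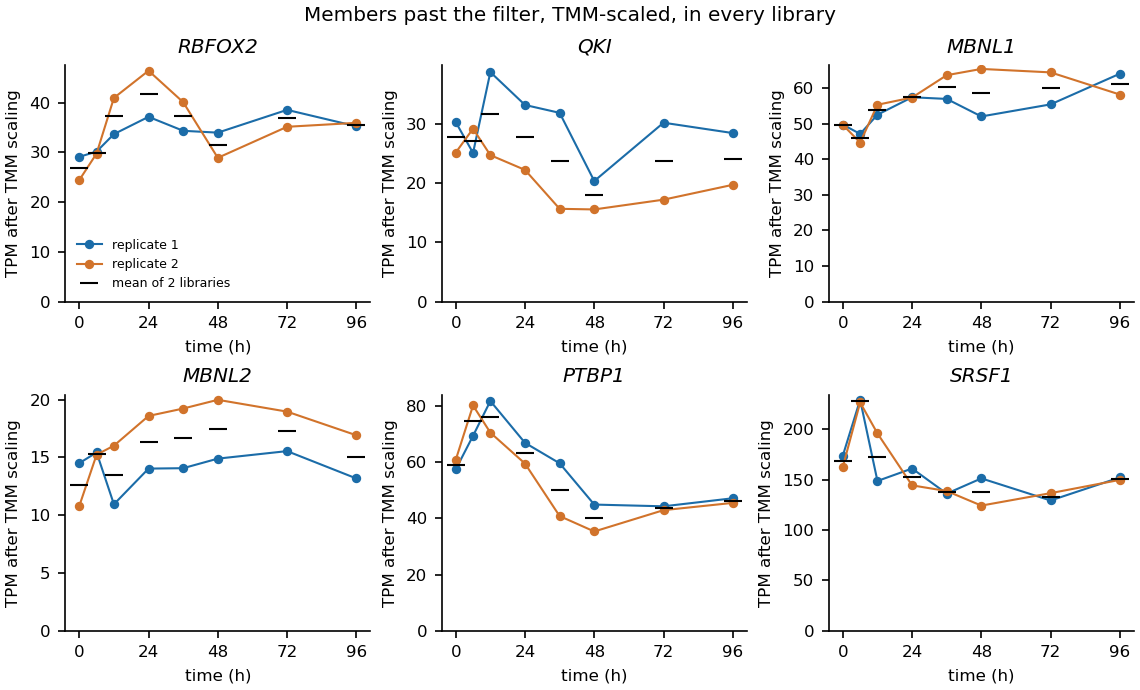
TPM after TMM scaling (y axis, linear from 0) against time in hours (x axis) for the 6 members tested, with the libraries of replicates 1 and 2 as joined points and the mean of the 2 libraries as dashes. SRSF1 stands at 229 and 227 at 6 h, above its values at every other time, and PTBP1 runs lower from 48 h than at 0 to 12 h in both replicates.

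On the TMM scale SRSF1 had its highest value at 6 h in both replicates, where the deposited TPM had it at 12 h in replicate 1 and at 6 h in replicate 2. SRSF1 was at 173.9 and 162.8 TPM at 0 h, at 229.4 and 226.7 TPM at 6 h and at 152.3 and 149.9 TPM at 96 h. PTBP1 was at 57.3 and 60.7 TPM at 0 h, at 69.3 and 80.0 TPM at 6 h, at 81.6 and 70.4 TPM at 12 h, and at 47.1 and 45.4 TPM at 96 h, with its highest value at 12 h in replicate 1 and at 6 h in replicate 2. The 6 h differences were 0.44 for SRSF1 (adjusted p = 0.368 by limma) and 0.33 for PTBP1 (adjusted p = 0.509), not called, while the deposited TPM gave -0.10 and -0.20. As a description over the 8 times, the correlation between the replicate series was 0.82 for PTBP1, 0.738 for SRSF1, 0.717 for RBFOX2, 0.593 for MBNL1, 0.275 for QKI and 0.0695 for MBNL2 on this scale. On the TPM as deposited it was 0.531, 0.582, 0.718, 0.173, 0.197 and -0.0371 in the same order. Points of 1 series share the reference set by the scaling.

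Ratios of 2 members within a library do not depend on the scale of that library. Their pairs were chosen after the values were seen, so they are given without a test. MBNL1 to PTBP1 was 0.558 to 0.867 in the early libraries (median 0.732) and 0.859 to 1.85 in the late ones (median 1.27). RBFOX2 to PTBP1 was 0.372 to 0.581 early (median 0.424) and 0.556 to 0.983 late (median 0.786). The early and late ranges overlapped slightly, by the 24 h library of replicate 1 in both ratios and its 36 h library in the second. QKI to RBFOX2 went the other way, from a median of 1.01 (0.605 to 1.15) to 0.575 (0.391 to 0.929), and QKI to PTBP1 had medians of 0.390 and 0.448. MBNL2 to MBNL1 had medians of 0.291 and 0.289, and PTBP1 to SRSF1 at 0.356 and 0.311.

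**Figure D4:**
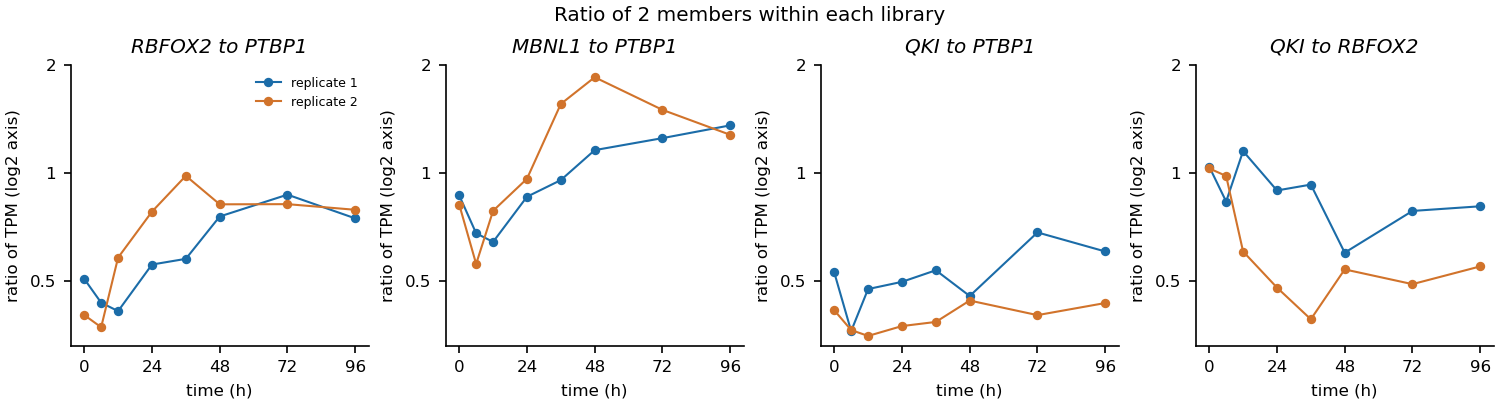
Ratio of the TPM of 2 members within each library (y axis, log2 axis) against time in hours (x axis), with replicates 1 and 2 as joined points. MBNL1 to PTBP1 is above 1 in both replicates from 48 h on, and RBFOX2 to PTBP1 has medians of 0.424 up to 12 h and 0.786 from 24 h.

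In order of the median over all 16 libraries the members were SRSF1 (165.4 TPM), MBNL1 (58.8), PTBP1 (57.5), RBFOX2 (35.5), QKI (25.0), MBNL2 (16.4), ESRP2 (0.415) and ESRP1 (0.085). The order of MBNL1 and PTBP1 turned within the course, with medians of 54.7 and 69.6 TPM early and of 59.19 and 44.4 TPM late. The ranges of SRSF1 and MBNL1 did not overlap, nor did those of MBNL2 and ESRP2. Every other pair of neighbours in this order overlapped over libraries. RBFOX2 was above QKI in all libraries except both of 0 h and 12 h replicate 1.

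The closest relatives of the members showed where expression of each family lay. PTBP3, a widely expressed relative of PTBP1, had medians of 61.9 TPM early and 58 TPM late (adjusted p = 0.544 by limma), and PTBP2, the neuronal relative, 10.5 and 7.87 TPM (adjusted p = 0.613). RBFOX3, known from neurons, was at 0.39 to 2.86 TPM early (median 0.905) and 0.23 to 0.57 TPM late (median 0.3). It was called lower (adjusted p = 0.0161 by limma), but it passed the filter through early libraries alone, which favours that direction. MBNL3 and RBFOX1 were not tested, with highest values of 0.36 and 0.02 TPM.

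Among other splicing genes, the lists were described by their counts between late and early libraries. Of 34 core spliceosome genes, all tested, 10 were called lower and 0 higher, against 7.86% and 2.34% of all genes. The median was -0.38, and 33 of the 34 lay below 0, with and without TMM scaling. Of all 16967 genes tested, 11196 lay below 0 on the TPM as deposited and 9013 with TMM scaling. SNRPD1, a subunit of the Sm ring, fell from a median of 48.4 to 31.5 TPM (adjusted p = 0.00834 by limma), and U2AF2, which binds the polypyrimidine tract at the splice site, fell from 73.9 to 48.8 TPM (adjusted p = 0.0396). With the block 15 were called lower, against 11.2% of all genes, and with block and TMM scaling 10, against 12.4%. The median with TMM scaling was -0.27, next to -0.02 over all genes.

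Of 12 SR protein genes other than SRSF1, 1 was called lower, SRSF2, against 7.86% of all genes. SRSF2 was at medians of 147.6 and 104.8 TPM (-0.55, adjusted p = 0.0271 by limma), and the median of the list was -0.23. Of 23 hnRNP genes, whose proteins package RNA and often repress exons, 0 were called, against 10.2% of all genes. With the replicate block 6 were lower, against 11.2% of all genes. HNRNPA2B1 had medians of 265.2 and 153.5 TPM (-0.66, adjusted p = 0.0700, or 0.00882 with the block). HNRNPM, an hnRNP protein known to act on CD44 splicing in mesenchymal cells, had medians of 83.7 and 53.4 TPM (-0.59, adjusted p = 0.0629, or 0.00280 with the block). The median of the hnRNP list was -0.30, or -0.19 with TMM scaling. With block and TMM scaling 5 were lower, against 12.4% of all genes. Of 7 tested SR protein kinases and importers 0 were called, with a median of -0.05. With block and TMM scaling 2 were lower, against 12.4% of all genes. They were SRPK1 (adjusted p = 0.0127 by limma) and TNPO3 (0.0395), both named after their values were seen.

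Of 31 tested regulators of other families, 1 was called lower, TARDBP, against 7.86% of all genes. TARDBP was at medians of 46.4 and 32.4 TPM (-0.49, adjusted p = 0.0289 by limma). With the block 2 were lower, TARDBP and RBM47 (11.2% of all genes), and 2 were higher, RBMS3 and NOVA2 (3.76% of all genes). NOVA2 was named after its values were seen because it lies at a late median of 0.83 TPM. RBM47, an RNA-binding protein linked to the epithelial state, was at medians of 14.1 and 9.8 TPM (-0.60, adjusted p = 0.0687, or 0.0186 with the block). RBMS3 was at 5.65 and 12.0 TPM (0.53, adjusted p = 0.0739, or 0.0382 with the block). With block and TMM scaling RBMS3, NOVA2 and TIA1 were higher, and TARDBP, RBM47 and RBM38 were among those lower; TIA1 and RBM38 were named after their values were seen.

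**Figure D5:**
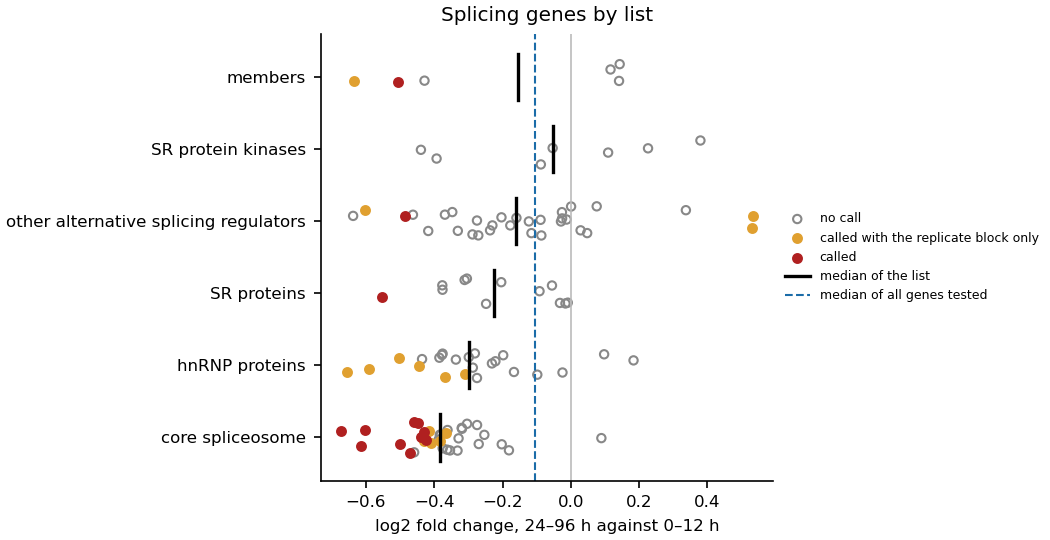
Log2 fold change of 24 to 96 h against 0 to 12 h (x axis) for genes of 6 splicing lists (y axis), on TPM as deposited; each point is a gene, filled red where called by limma, orange where called with the replicate block only and open where not called. Black bars are list medians, from -0.38 for the core spliceosome to -0.05 for SR protein kinases, and the dashed line is the median of all genes tested, -0.11.

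The transcription factors of the transition include ZEB1, ZEB2, SNAI1 and SNAI2, of which ZEB and SNAI proteins are known repressors of epithelial genes, ESRP1 among them. ZEB1 had a median of 13.4 TPM early and 18.8 TPM late (0.25, adjusted p = 0.680 by limma), and stood at 13.4 ± 0.424 TPM (SD, n = 2) at 0 h, where ESRP1 was at 0.20 and 0.23 TPM. ZEB2 had medians of 1.15 and 1.45 TPM (adjusted p = 0.458), SNAI1 of 1.72 and 3.34 TPM (adjusted p = 0.510), and SNAI2 of 0.895 and 2.39 TPM (0.79, adjusted p = 0.239, or 0.00860 with the replicate block). With block and TMM scaling ZEB2, SNAI1 and SNAI2 were called higher, 3 of 7 tested, against 9.14% of all genes. GRHL2, an epithelial factor, had medians of 0.055 and 0.03 TPM and was not tested. ELF3, another epithelial factor, fell from a median of 44.7 to 14.9 TPM (-1.89, adjusted p = 0.0104), the 1 gene of this list called on the TPM as deposited.

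The genes whose course was most like that of ESRP2 and QKI were ranked by the lower of their Pearson correlations in replicates 1 and 2 over the 8 times, among genes whose mean was 5 TPM or more. For QKI they were ZNF106 (0.992), TRAM2 (0.98), UBE3C (0.98), MTDH (0.977) and HIF1AN (0.976), among 9383 genes. For ESRP2 they were ZBTB18 (0.83), ELOVL1 (0.829), AUTS2 (0.763), AGAP1 (0.762) and UBA1 (0.759), among 9384 genes. These values are descriptions over genes of the same libraries, which share the scale of each library.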

How the data were processed

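RNA of 16 A549 libraries (8 times, replicates 1 and 2) was extracted with Trizol and made into libraries with an Illumina TruSeq kit (labels' protocols). TPM per gene were deposited by the authors in 2 tables, split by replicate number. Per the submitters' processing notes the tools included Bowtie and RSEM, with no version. Genome build and annotation: not given in the sources used here, so no gene coordinates are printed, and the RefSeq promoter windows carry their own build. The windows searched were not the whole promoter table, and whether it holds a window of ESRP1 was not tested. TPM keep no read totals, so depth is unknown.

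Values were analysed as log2(TPM + 1), which understates the change of low genes. The 16967 genes that reached 1 TPM in 2 or more libraries entered limma 3.58.1 (R 4.3.3), with a mean for each time, a mean trend in the empirical Bayes step, a spread pooled over times and two-sided tests. P-values were adjusted by Benjamini-Hochberg over all genes, and a gene was called below 0.05. TMM scaling was an unweighted trimmed mean computed on the TPM, trimming 30% of ratios and 5% of levels.

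Whether replicates were separate cultures is not labelled: p-values reflect the spread of these samples alone, possibly technical. Same-numbered libraries deviated together from their time means, with a correlation above 0.1 for 28 of 28 pairs of times (lowest 0.128, median 0.438; 27 of 28 with TMM scaling). The main fit has no block and so ignores this pairing. A further fit took the replicate numbers as a pairing, and its blocked values are given where they change a result. No 2 libraries were identical (highest correlation 0.989).

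The members, the 15 lists and the split into early and late libraries were chosen with earlier results of these data known. Beside the members, the named genes were up to 2 higher and 2 lower per list among those called with the block whose higher group averaged 5 TPM or more, plus ZEB1, ZEB2, SNAI1, SNAI2, GRHL2 and CDH1. The relatives of the members and single cell type markers (KRT8, KRT18, EPCAM, LUM, CD14, SNAP25 and MYOG) are named outside this rule, with their values seen. SRSF8 and PECAM1 had no single row. A gene that the rule names is not reported here. Alternatives were a pseudocount of 0.1, no filter, a filter of at least 5 TPM, TMM scaling, the 6 small RNAs left out, the replicate block, no mean trend, and libraries left out.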

Additional observations from a re-analysis of the deposited data

How the results depend on the processing

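The number of members called between late and early libraries was 1, and it was 0 with no filter or without both libraries that list the most genes at 0, 2 with a filter of at least 5 TPM, with TMM scaling, with the 6 small RNAs left out or with the replicate block, and 3 with the replicate block and TMM scaling together. Leaving out each library in turn gave 0 to 2. Calls over all genes moved too, and with single libraries left out they rose in some runs and fell in others. They went from 1731 of 16967 to 1402 of 37826 with no filter and 1588 of 10790 with the 5 TPM filter. They were 2249 of 16967 with TMM scaling and 2140 of 16961 with the small RNAs left out. The block gave 2537 of 16967, and 3652 together with TMM scaling. The replicate block raised the count of members at 48 h from 0 to 2, and with TMM scaling it raised that over the whole course from 0 to 1. Beside the late against early count, it changed no other count of members called. A library left out leaves its time with 1 sample, which is assumed to vary like the others. Uncalled estimates changed sign against 0 h. With TMM scaling, with or without the block, RBFOX2 was at 0.16, MBNL2 at 0.27, PTBP1 at 0.33 and SRSF1 at 0.44 at 6 h, PTBP1 at 0.093 at 24 h and MBNL2 at 0.24 at 96 h. With the small RNAs left out PTBP1 was at 0.016 and SRSF1 at 0.12 at 6 h, PTBP1 at 0.013 at 24 h and MBNL2 at 0.13 at 96 h. With single libraries left out the 6 h estimates ran from -0.45 to 0.055 for PTBP1 and from -0.24 to 0.045 for SRSF1. The 24 h estimates ran from -0.59 to 0.22 for QKI, from -0.088 to 0.17 for MBNL1 and from -0.28 to 0.14 for PTBP1. Those at 96 h ran from -0.18 to 0.46 for RBFOX2, from -1.06 to 0.11 for QKI, from -0.39 to 0.43 for MBNL1 and from -0.18 to 0.14 for MBNL2. The cause was not tested. Depth is unknown, so the counting error of ESRP1 and ESRP2 cannot be given.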

Other observations

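Genes known to switch isoforms between epithelial and mesenchymal cells were followed as gene totals, which do not show isoforms. Of 22 such genes, all tested, 1 was called lower between late and early libraries on the TPM as deposited, against 7.86% of all genes. It was MST1R, a receptor tyrosine kinase, at medians of 2.12 and 0.835 TPM without overlap (-0.76, adjusted p = 0.00573 by limma), named after its values were seen. DNM2, a GTPase of vesicle scission, was among the genes called lower with the replicate block, at medians of 28.7 and 20 TPM (-0.56, adjusted p = 0.0776, or 0.0315 with the block). The median of the list was -0.12, next to -0.11 over all genes. With block and TMM scaling 3 were lower, MST1R, DNM2 and CTNND1, against 12.4% of all genes. In the same fit 3 were higher, against 9.14%, named like CTNND1 after their values were seen. They were CD44, a hyaluronan receptor, at 0.55 (adjusted p = 0.00530 by limma), CLSTN1 at 0.37 (0.00893) and ITGA6, a laminin-binding integrin, at 0.43 (0.00281).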
